A study of Homo sapiens with 6 samples.

Results

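PD-L1, encoded by CD274, and the other ligands of T cell and NK cell checkpoint receptors were followed here in KYSE150, an established cell line from a human oesophageal squamous cell carcinoma. The 10 genes are CD274, PDCD1LG2, CD80, CD276, VTCN1, ICOSLG, NECTIN2, PVR, LGALS9 and NT5E, taken by name from a table of 60591 genes, in which all 10 were found. They were measured by RNA sequencing in 3 libraries of cells given TPA and 3 of cells given the solvent DMSO. TPA is a phorbol ester that activates protein kinase C in place of diacylglycerol. Per the labels, cells were starved of serum overnight and then kept with TPA at 10 ng/ml for 24 h. The same text stands on the DMSO samples. Nothing in the labels states whether each library is a culture of its own, and the p-values below therefore describe the spread among 6 libraries, part of which may be technical.

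Checkpoint ligands sit on tumour cells and antigen-presenting cells and bind receptors on lymphocytes. PD-L1 and PD-L2 bind PD-1 and restrain T cells, and interferon gamma, acting through JAK kinases and IRF1, is the best known inducer of PD-L1, while NF-kB and AP-1 factors are also known to act on its gene. CD80 and ICOSLG belong to the same B7 family and can costimulate T cells, whereas the nectin family members PVR and NECTIN2 bind both the activating receptor CD226 and the inhibitory receptor TIGIT. NT5E makes extracellular adenosine, which dampens T cells.

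Promoter windows from RefSeq (GRCh38.p14, 250 bases before to 50 after the start site) were found for 9 of the 10 genes, all but PDCD1LG2, with a pair of windows for CD276. They were searched on both strands for an AP-1 motif (TGANTCA), a STAT motif (TTCNNNGAA), an IRF core (AANNGAAA) and the NF-kB motif. CD274 is shown because it is the gene known for interferon induction, and NECTIN2 and PVR because both lie on chromosome 19 and had all TPA libraries above all DMSO libraries. ICOSLG, on chromosome 21 and not shown, had the same separation, which was seen for 14.3% of all tested genes. Capitals mark matches to the 4 motifs, and all 3 windows are on the plus strand, at chr9:5450292-5450591 for CD274, chr19:44846047-44846346 for NECTIN2 and chr19:44643660-44643959 for PVR.
CD274: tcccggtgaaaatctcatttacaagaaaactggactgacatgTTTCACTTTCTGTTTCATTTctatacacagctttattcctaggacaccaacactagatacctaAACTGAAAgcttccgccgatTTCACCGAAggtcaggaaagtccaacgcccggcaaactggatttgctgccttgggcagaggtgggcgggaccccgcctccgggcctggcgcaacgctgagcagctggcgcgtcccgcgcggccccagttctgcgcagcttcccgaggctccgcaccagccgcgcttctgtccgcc
NECTIN2: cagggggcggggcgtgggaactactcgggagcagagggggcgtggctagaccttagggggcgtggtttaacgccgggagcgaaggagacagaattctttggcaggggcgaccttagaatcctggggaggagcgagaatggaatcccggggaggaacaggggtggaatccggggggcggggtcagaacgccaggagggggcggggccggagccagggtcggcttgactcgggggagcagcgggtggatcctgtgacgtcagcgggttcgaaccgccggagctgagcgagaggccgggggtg
PVR: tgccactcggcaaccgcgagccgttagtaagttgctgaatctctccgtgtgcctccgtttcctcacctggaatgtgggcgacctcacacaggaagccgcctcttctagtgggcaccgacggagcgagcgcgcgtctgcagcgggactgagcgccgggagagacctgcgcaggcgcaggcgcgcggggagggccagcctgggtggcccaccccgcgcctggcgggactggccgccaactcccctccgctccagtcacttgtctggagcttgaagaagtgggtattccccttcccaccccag

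The CD274 window held 1 STAT match (bases -125 to -117 from the start site) and 4 IRF matches, of which 3 overlap at their ends between -208 and -189. NECTIN2 and PVR held none of the 4 motifs. Of 35116 promoter windows of this length 7.66% held the STAT motif, 22.8% the IRF core, 7.71% the AP-1 motif and 11.3% the NF-kB motif. Among the other genes VTCN1 had 1 AP-1 match, LGALS9 1 IRF match and 1 of the CD276 windows 1 NF-kB match. A match is a description of letters, not a binding site.

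The libraries numbered 1 stood apart from numbers 2 and 3 in both groups. Library totals ran from 27702329 to 33965547 counts, so 3 counts, the limit that a count of 0 allows, are 0.0915 to 0.109 CPM (counts scaled to library size with TMM factors). Deviations from the group mean correlated at 0.646 between DMSO 1 and TPA 1 across 14063 genes, and number 1 lay above both other libraries in both groups for 29.1% of the 21825 genes tested and below them for 29.5%. Ratios of TPA to DMSO also followed transcript GC content in numbers 2 and 3 (Spearman correlation 0.66 and 0.60) but not in number 1 (-0.12). For this reason results are set beside a fit with the library number as a block and a fit that also removes each library's GC trend. All 8 markers of squamous epithelial cells had counts. Summed markers of squamous epithelial cells ran from 1590 to 3340 CPM in DMSO and from 1230 to 2580 CPM in TPA. KRT5, the basal keratin gene, had 428, 1740 and 1780 CPM in DMSO and 66.7, 490 and 509 CPM in TPA. It was thus lower with TPA in every number and lowest in number 1 of each group. The 8 markers did not move together. EPCAM was highest in number 1 of each group (147, 118 and 115 CPM in DMSO, 152, 126 and 131 CPM in TPA). TP63 was lower and CDH1 higher in every TPA library than in any DMSO library. Summed T cell markers ran from 5.73 to 6.85 CPM in DMSO and from 3.52 to 4.54 in TPA, those of macrophages from 10.2 to 19 and from 13 to 19.1, those of dendritic cells from 3.82 to 4.55 and from 2.57 to 5.88, and those of B cells stayed at or under 0.391 CPM. In these lists CD3D, MS4A1, CD1C and CLEC9A had no count in any library, while CD5 had 60 to 138 counts, LAMP3 62 to 152 and CSF1R 223 to 493. CD3E had 67, 125 and 88 counts in DMSO and 35, 36 and 32 in TPA, without overlap. All 6 samples are labelled as the KYSE150 line, so these counts are not read as numbers of T cells, macrophages or dendritic cells. Where the reads of these marker genes came from was not tested.

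The 10 genes fell into 4 with high and 6 with low transcript levels. On the scale of CPM per kilobase of exon, PVR stood highest in DMSO (42.2 ± 3.91, SD, n = 3), followed by CD274 (26.0 ± 19.1), CD276 (22.2 ± 5.32) and NECTIN2 (15.2 ± 0.746). PDCD1LG2 came next at 1.32 ± 0.166, with no overlap with the genes on either side of it. VTCN1 (0.277 ± 0.198), NT5E (0.273 ± 0.200) and LGALS9 (0.210 ± 0.0649) overlapped one another, and CD80 (0.0810 ± 0.0575) and ICOSLG (0.0648 ± 0.0134) overlapped at the bottom. PVR overlapped CD274, because the level of CD274 in DMSO 1 (48.0) was above every PVR value in DMSO. CD274 overlapped CD276 as well, because in DMSO 2 and DMSO 3 it lay below every CD276 value (16.2 to 26.4). Its range also overlapped that of NECTIN2. The place of CD274 above CD276 in DMSO thus rested on DMSO 1. In TPA the upper 4 were PVR (64.5 ± 7.30), CD274 (41.2 ± 23.3), NECTIN2 (30.8 ± 8.68) and CD276 (21.0 ± 9.97), each overlapping the next.

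**Figure D1:**
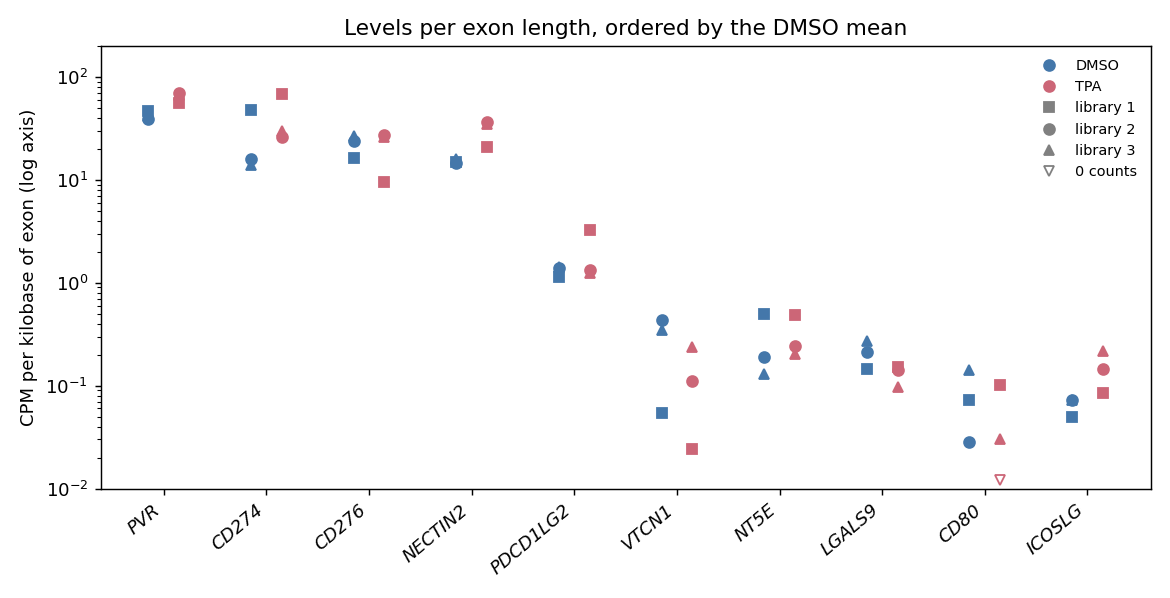
CPM per kilobase of exon (log axis) of the 10 genes in each DMSO (blue) and TPA (red) library, with symbols for library numbers and an open triangle for a count of 0. PVR, CD274, CD276 and NECTIN2 lie above 9, PDCD1LG2 between 1.13 and 3.28 and the other 5 below 0.51.

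In the comparison of 3 TPA with 3 DMSO libraries, none of the 9 genes tested passed (edgeR's quasi-likelihood test, Benjamini-Hochberg adjusted p under 0.05), where 0.861% of all genes were called higher and 0.394% lower. At an unadjusted p under 0.05 there were 3, namely NECTIN2, ICOSLG and PVR, where 22.1% of all tested genes reached that level in either direction, a share that also stands beside the unadjusted counts of the gene lists below. These were also the 3 whose TPA libraries all lay above all DMSO libraries. Such separation was seen for 14.3% of all tested genes upward and 15.2% downward. DESeq2 called NECTIN2 and PVR higher, against 6.93% of all its genes higher and 3.21% lower. With limma-voom none of the 9 was called, against 1.13% and 0.596%. The DESeq2 and limma-voom shares of all genes likewise stand beside the DESeq2 and limma-voom counts of the gene lists below. The median log2 fold change of the 9 was 0.56 against -0.11 for all genes. CD80 did not pass the filter on low counts and was not tested.

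With the library number as a block, 1 of the 9 genes was called higher (NECTIN2) and none lower, against 4.58% and 6.52% of all genes. With the block and the GC correction, CD274 and NECTIN2 were called higher and CD276 lower, against 9.84% and 11.4%. The shares of the block fits also stand beside their counts in the gene lists below. Without both libraries numbered 1, CD274, ICOSLG, NECTIN2, PVR and CD276 were called higher and VTCN1 and LGALS9 lower, against 32.2% and 33.3% of all genes. That last fit has 2 libraries in each group.

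**Figure D2:**
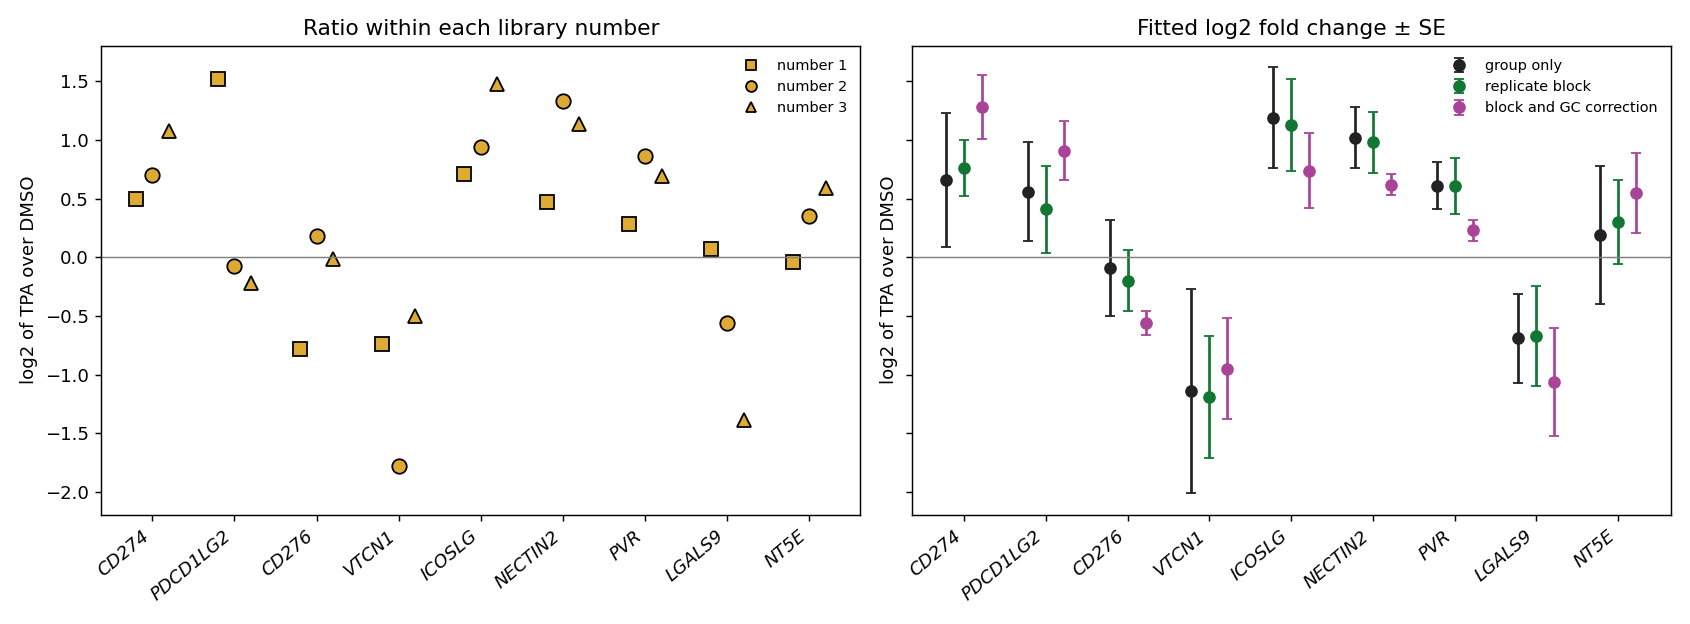
Log2 of TPA over DMSO for the 9 genes tested. Left, ratio within each library number, and right, fitted log2 fold change ± SE from the fit on group only, with the block, and with the block and GC correction. NECTIN2, PVR and ICOSLG lie above 0 in every number and fit, and CD274 moves from 0.66 to 1.28 with the block and GC correction.

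CD274, the PD-L1 gene (chromosome 9, 5450503 to 5470566), differed more between library numbers than between treatments. It had 197, 65.7 and 57.5 CPM in DMSO 1, 2 and 3 and 279, 107 and 122 CPM in TPA 1, 2 and 3. DMSO 1 was thus higher than TPA 2 and TPA 3, and the groups overlapped. Number 1 was 3.20-fold above the mean of numbers 2 and 3 in DMSO and 2.44-fold in TPA. Within each number TPA was the higher library, with log2 ratios of 0.50, 0.70 and 1.08. The fitted log2 fold change was 0.66 ± 0.57 (SE; 95% interval -0.66 to 1.98; adjusted p = 0.522, edgeR), so a change of up to 3.96-fold upward lies inside the interval. It was 0.76 ± 0.24 with the block (adjusted p = 0.063) and 1.28 ± 0.27 with the block and GC correction (0.0258), which called it. Without DMSO 1 it was 1.46, without TPA 1 0.21 and without both 1.05.

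PDCD1LG2, the PD-L2 gene next to CD274 (chromosome 9, 5510570 to 5571254), did not share this pattern. It had 2.67, 3.30 and 3.39 CPM in DMSO and 7.76, 3.13 and 2.90 CPM in TPA. Only TPA 1 stood out, and the other 5 libraries lay within 2.67 to 3.39 CPM. The log2 ratio was 1.52 in number 1 and -0.07 and -0.22 in numbers 2 and 3. The fitted log2 fold change of 0.56 ± 0.42 (adjusted p = 0.472, edgeR) rested on that library, since it was 0.06 without TPA 1. It was 0.41 ± 0.37 with the block (0.449) and 0.91 ± 0.25 with the block and GC correction (0.0518), short of the threshold.

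**Figure D3:**
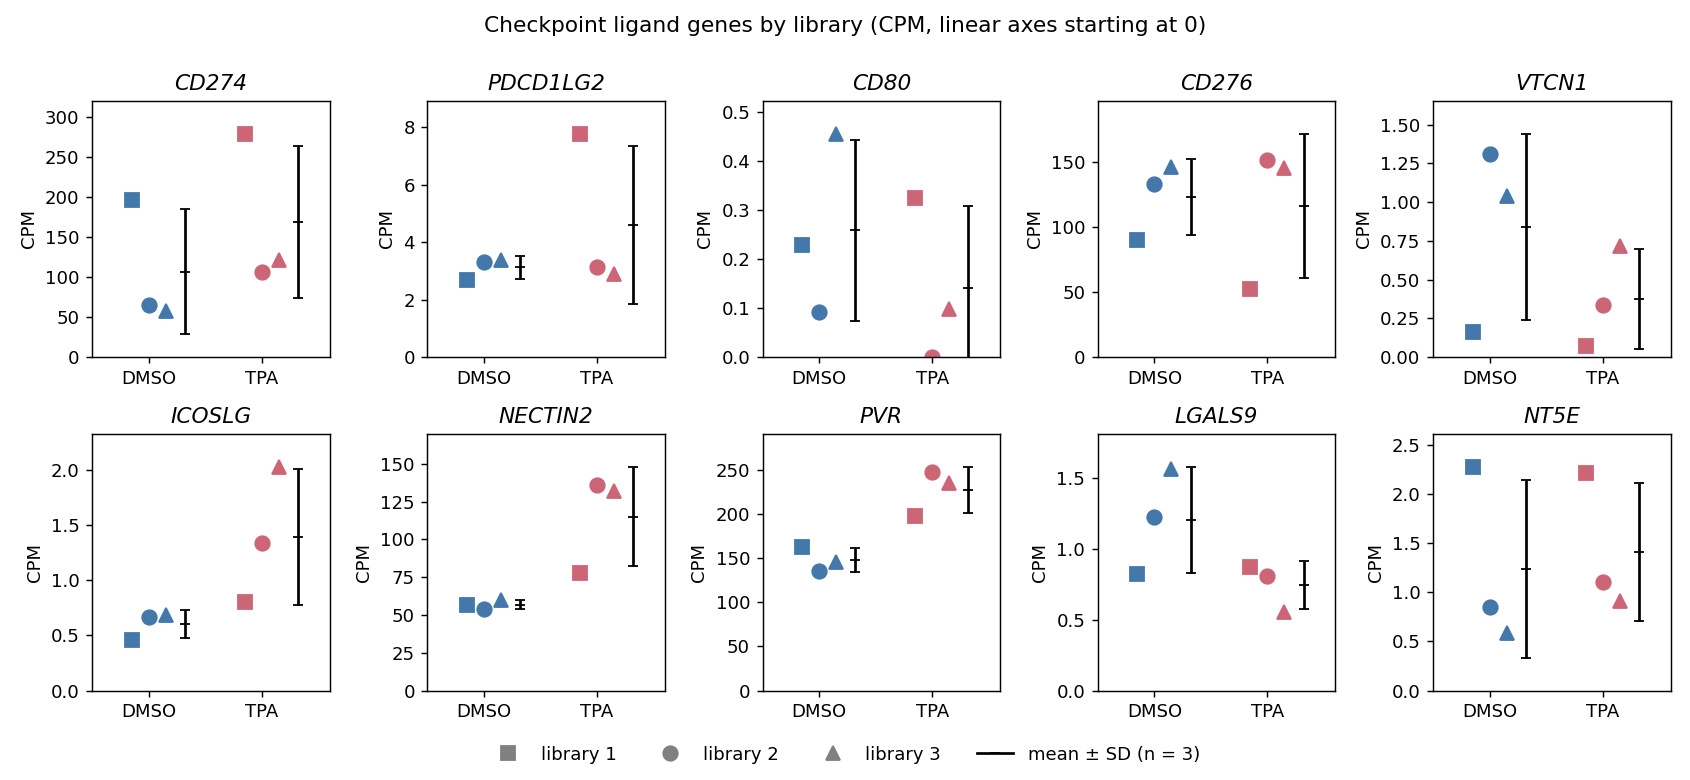
CPM of each gene by library (linear axes from 0), with symbols for library numbers and mean ± SD (n = 3) beside each group. CD274 and NT5E are highest in the libraries numbered 1 of both groups, and NECTIN2, PVR and ICOSLG have all TPA libraries above all DMSO libraries.

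The nectin family ligands NECTIN2 and PVR had higher levels in every TPA library than in any DMSO library. NECTIN2 (chromosome 19, 44846175 to 44889228) had 56.3, 54.2 and 59.8 CPM in DMSO and 78.0, 136 and 132 CPM in TPA. All 3 TPA libraries were higher, TPA 1 by the least. Its fitted log2 fold change was 1.02 ± 0.26 (95% interval 0.41 to 1.64, adjusted p = 0.0855 by edgeR), 0.98 with the block (0.0366) and 0.62 ± 0.09 with the block and GC correction (0.0105). The GC content of its transcripts is 61.2%. An antisense gene that shares 128 exon bases with it had 2 to 13 counts per library.

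PVR (chromosome 19, 44643798 to 44663583), which encodes the poliovirus receptor CD155, had 163, 136 and 146 CPM in DMSO and 198, 248 and 235 CPM in TPA. The groups did not overlap, and the log2 ratios in numbers 1, 2 and 3 were 0.28, 0.86 and 0.69. Its log2 fold change was 0.61 ± 0.20 (adjusted p = 0.132, edgeR) and 0.23 ± 0.09 with the block and GC correction (0.109). PVR shares 121 exon bases with CEACAM19, so reads there may be assigned to either gene or to none.

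Of the other nectins and nectin-like molecules 0 of 4 tested passed in either direction (edgeR; unadjusted p below 0.05 for 1, 1 higher with DESeq2). NECTIN4 had 20.7, 15 and 13.2 CPM in DMSO and 19.3, 55.3 and 50.6 CPM in TPA, so only TPA 2 and TPA 3 were high (log2 1.36 ± 0.41, adjusted p = 0.119). CADM4, a nectin-like adhesion gene, had a log2 fold change of -0.24 ± 0.48 (0.796). NECTIN1, the herpesvirus entry receptor, was low in DMSO 1 (107 CPM) and TPA 1 (47.7) against 264 to 310 CPM in the other 4 libraries. The block and GC correction called NECTIN1 and CADM4 lower, where 11.4% of all genes were called lower.

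CD276, which encodes the B7 family member B7-H3 (chromosome 15, 73683966 to 73714518), followed library number in the direction opposite to CD274. It had 90.0, 133 and 146 CPM in DMSO and 52.4, 151 and 145 CPM in TPA. TPA 1 was the lowest library and DMSO 1 the second lowest. The log2 fold change of -0.09 ± 0.41 (95% interval -1.05 to 0.87, adjusted p = 0.918 by edgeR) became -0.56 ± 0.10 with the block and GC correction (0.0158) and 0.24 without the libraries numbered 1 (0.0208). Its direction therefore depended on the libraries and the correction used.

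VTCN1, the B7-H4 gene (chromosome 1, 117143587 to 117210960), was nearly absent from the libraries numbered 1. It had 5, 43 and 32 counts in DMSO and 2, 10 and 22 counts in TPA. The number 1 library was 0.140 times the mean of the other libraries in DMSO and 0.138 times in TPA. Within each number TPA was lower, and the fitted log2 fold change was -1.14 ± 0.87 (adjusted p = 0.472, edgeR).

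**Figure D4:**
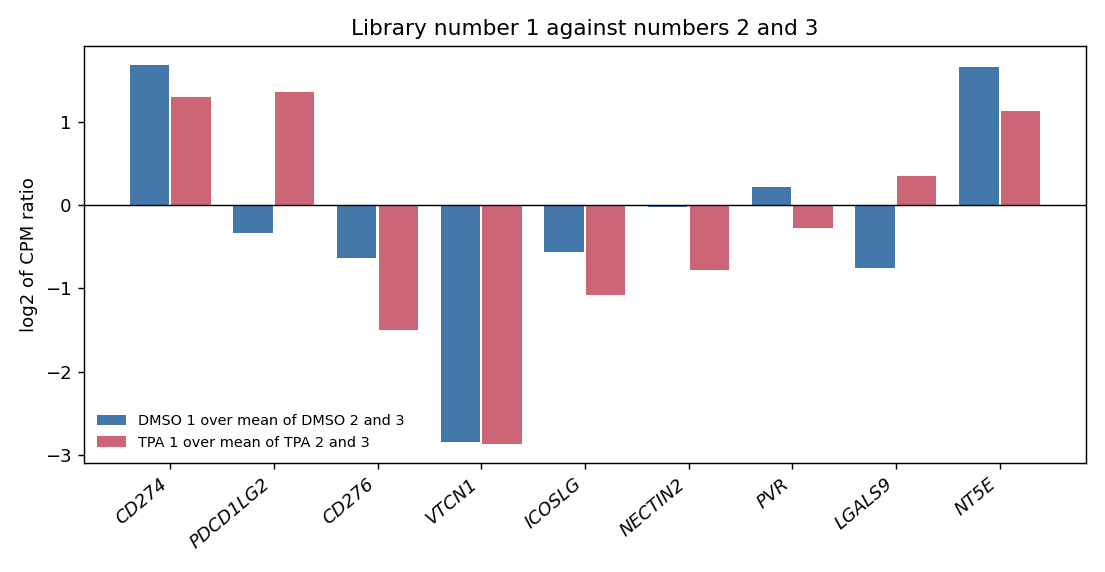
Log2 of the CPM of library number 1 over the mean CPM of numbers 2 and 3, in DMSO (blue) and TPA (red), for the 9 genes tested. CD274 and NT5E are above 0 and CD276, VTCN1 and ICOSLG below 0 in both groups, with VTCN1 at -2.84 and -2.86.

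Of the 10 genes 2, CD274 and NT5E, had number 1 above numbers 2 and 3 in both groups, and 3, CD276, VTCN1 and ICOSLG, had it below in both. These shares stand beside the 29.1% and 29.5% of all tested genes given above. The labels do not say what a library number stands for.

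The costimulatory ligands were at trace levels. ICOSLG, the ligand of ICOS (chromosome 21, 44217014 to 44240966), had 14, 22 and 21 counts in DMSO and 22, 40 and 62 counts in TPA. In CPM all TPA libraries (0.798, 1.34 and 2.02) were above all DMSO libraries (0.461, 0.671 and 0.684). Its log2 fold change was 1.19 ± 0.43 (95% interval 0.19 to 2.20, adjusted p = 0.168 by edgeR), and it ran from 0.83 without TPA 3 to 1.58 without TPA 1, where it was called (0.00536). In that last fit 5577 of all genes were called higher and 6297 lower. RefSeq lists a further locus of this family on chromosome 21, LOC102723996, and reads shared with it may have been lost.

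CD80, the B7-1 ligand of CD28 and CTLA-4 (chromosome 3, 119524293 to 119559602), had 7, 3 and 14 counts in DMSO and 9, 0 and 3 counts in TPA. TPA 2, with no count, allows up to 0.101 CPM. The other 5 libraries lay between 0.0915 and 0.456 CPM, and the groups overlapped. CD80 shares 798 exon bases with TIMMDC1 on the opposite strand, a gene with 1115 to 1924 counts per library, and the strand setting of the counting is not given, so even these few reads are uncertain.

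LGALS9, which encodes the TIM-3 ligand galectin-9 (chromosome 17, 27629798 to 27649560), had 25, 40 and 48 counts in DMSO and 24, 24 and 17 counts in TPA. In CPM the values were 0.823, 1.22 and 1.56 against 0.870, 0.807 and 0.554, overlapping through DMSO 1. The log2 fold change was -0.69 ± 0.38 (adjusted p = 0.333, edgeR). The near-identical LGALS9B had 7 to 16 counts and LGALS9C up to 4 per library, so reads may be split among these copies.

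NT5E, the CD73 gene that turns AMP into adenosine (chromosome 6, 85449584 to 85495791), had 2.27, 0.854 and 0.586 CPM in DMSO and 2.21, 1.11 and 0.913 CPM in TPA. Both libraries numbered 1 were the highest, 3.15-fold and 2.19-fold above the mean of the others in their group, and TPA 1 and DMSO 1 were close. The log2 fold change was 0.19 ± 0.59 (95% interval -1.18 to 1.55, adjusted p = 0.871 by edgeR), and its sign turned with the scaling and with 3 of the libraries left out.

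Of 11 tested genes of the adenosine pathway 0 passed (edgeR; unadjusted p below 0.05 for 3, 1 lower each with DESeq2 and limma-voom), and the block called 2 lower, ENTPD1 and ENTPD3. ENTPD1, the CD39 gene that supplies AMP to NT5E, had 6.48, 9.03 and 7.49 CPM in DMSO and 5.40, 1.31 and 1.40 CPM in TPA. All TPA libraries were lower, TPA 2 and TPA 3 by far the most. Its log2 fold change was -1.51 ± 0.56 (adjusted p = 0.178), -1.80 with the block (0.0307) and -1.57 with the block and GC correction (0.0506). ENTPD3, another ectonucleotidase gene, had 13, 16 and 12 counts in DMSO and 2, 0 and 1 counts in TPA (adjusted p = 0.0644, and 0.0283 with the block). It stayed called with the block and GC correction (0.0258). That fit called 2 of the list higher and 5 lower, against 9.84% and 11.4% of all genes. The block alone called 6.52% of all genes lower. The adenosine receptor gene ADORA2B had 60.3, 57.9 and 58.5 CPM in DMSO and 44.0, 56.3 and 55.8 CPM in TPA, without overlap, and was called lower with the block and GC correction alone of these 3 fits (log2 -0.36, adjusted p = 0.0456).

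Other inhibitory ligands of the B7, butyrophilin and related groups were not called in either direction (0 of 14 tested, edgeR; unadjusted p below 0.05 for 4, 3 higher with DESeq2 and 0 with limma-voom). With the block BTN2A2 was called higher and CEACAM1 lower, against 4.58% and 6.52% of all genes. With the GC correction added, 4 were called higher and 3 lower, against 9.84% and 11.4%. BTN2A2 (0.63, adjusted p = 0.0109 by edgeR) and CEACAM1 (-1.06, 0.0115) were among them. BTN2A2, a butyrophilin gene, had 32, 29.3 and 29.7 CPM in DMSO and 53.8, 56.9 and 56.1 CPM in TPA, an even difference in all 3 numbers (log2 0.87 ± 0.19, adjusted p = 0.0676, and 0.0378 with the block). CEACAM1, whose product can bind TIM-3, had 11.9, 14.8 and 14.8 CPM in DMSO and 7.43, 6.92 and 8.18 CPM in TPA (-0.88 ± 0.22, 0.0831, and 0.0397 with the block). CD47, the ligand that restrains phagocytosis, lay between 61.3 and 88.7 CPM with overlapping groups. CD86, HHLA2 and IDO1 stayed under 0.1 CPM in every library.

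Ligands of activating NK receptors and of CD2 were not called either (0 of 10 tested, edgeR; unadjusted p below 0.05 for 2, 1 higher and 1 lower with DESeq2, 0 with limma-voom). BAG6, whose product can be shed as an NKp30 ligand, had 294, 294 and 308 CPM in DMSO and 396, 630 and 618 CPM in TPA (log2 0.87 ± 0.23, adjusted p = 0.0889). CLEC2B, the ligand of NKp80, had 1.05, 2.75 and 3.06 CPM in DMSO and 0.761, 0.504 and 0.717 CPM in TPA (-1.79 ± 0.47, 0.0884). It was called with the block (0.0357) but not with the block and GC correction (-1.12, 0.0526). BAG6 was called with the block and GC correction (0.47, 0.018) but not with the block (0.051). Of the list the block called 0 higher and 1 lower, against 4.58% and 6.52% of all genes. With the GC correction added these were 1 and 1, against 9.84% and 11.4%. MICA, a stress ligand of NKG2D, lay between 16.9 and 40.7 CPM with overlapping groups.

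Of 14 genes of receptors for these ligands 3 had enough counts to be tested. CTLA4, CD28, ICOS and KIR3DL3 had no count, and PDCD1, the PD-1 gene, did not exceed 0.0336 CPM. Of 3 tested receptor genes 0 passed (edgeR; unadjusted p below 0.05 for 1, 1 higher with DESeq2, 0 with limma-voom). RGMB, a PD-L2 binding partner that epithelial cells also make, had 15.7, 15 and 11.8 CPM in DMSO and 29.3, 23.4 and 23.2 CPM in TPA (log2 0.83 ± 0.23, adjusted p = 0.0977). Its call with the block (0.0433) was lost with the block and GC correction (0.52, 0.0639). LAG3 was at 0.592 to 1.51 CPM with overlapping groups (0.54 ± 0.38, 0.439).

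In the list of interferon gamma signalling towards CD274, of 14 tested 0 passed (edgeR; unadjusted p below 0.05 for 4, 4 higher with DESeq2, 0 with limma-voom), with a median log2 fold change of 0.41, and the block called 4 higher and 0 lower. IFNGR2, a chain of the receptor, had 52.2, 53.7 and 53.3 CPM in DMSO and 90.7, 131 and 129 CPM in TPA (1.14 ± 0.22, adjusted p = 0.0590, and 0.0185 with the block). SOCS1, a feedback inhibitor of JAK kinases, had 1.09, 1.10 and 1.21 CPM against 2.39, 2.82 and 2.41 CPM (1.17 ± 0.27, 0.0722). Its call with the block (0.0433) was lost when the GC correction was added (0.86, 0.0707). The other genes called with the block were STAT2 and SOCS3. With the GC correction added, 4 were again called higher and 0 lower, namely IFNGR2 (0.79, 0.00579), STAT2, SOCS3 and IRF2. Over all genes DESeq2 called 6.93% higher. The block called 4.58% of all genes higher and 6.52% lower, and the block with GC correction 9.84% and 11.4%. IRF1 had 18.8, 30.3 and 31.3 CPM against 24.2, 46.3 and 43.4 CPM (0.50 ± 0.33, 0.406). IFNG itself had no count in any library.

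Of 16 tested genes of other transcription factors reported to act on CD274, 2 rose, NFKB2 and JUNB, and 0 fell (edgeR), with a median of 0.79. DESeq2 called 8 higher and limma-voom 6. The block called 8 higher and 0 lower, namely RELA, RELB, NFKB1, NFKB2, FOS, FOSL1, JUNB and MYC. Over all genes 0.861% were called higher on group alone, 6.93% with DESeq2, 1.13% with limma-voom and 4.58% with the block. NFKB2, the p100 subunit gene, rose from 133, 72.4 and 81.1 CPM in DMSO to 293, 375 and 378 CPM in TPA (1.87 ± 0.29, adjusted p = 0.0402). JUNB, an AP-1 subunit gene, rose from 104, 97.1 and 106 CPM to 188, 280 and 281 CPM (1.29 ± 0.23, 0.0498). Both had log2 ratios above 0.8 in all 3 numbers. The count of 2 fell to 0 without DMSO 2, DMSO 3, TPA 2 or TPA 3 and at a threshold of 0.01, and to 1, NFKB2, with upper-quartile factors or library size only. Without TPA 1 it was 9, with 3 lower, where 5577 of all genes were higher and 6297 lower. The block and GC correction called 8 higher and 1 lower, HIF1A (log2 -0.33, adjusted p = 0.0456 by edgeR). Shares of all genes in that fit were 9.84% and 11.4%. YAP1 had 223, 269 and 221 CPM in DMSO and 210, 110 and 122 CPM in TPA, without overlap (-0.69 ± 0.29, 0.215). TEAD1 had 452, 402 and 331 CPM against 507, 140 and 168 CPM, with overlapping groups. FOSL1, another AP-1 subunit gene, was at 300 CPM in DMSO 1 against 121 and 117 CPM in DMSO 2 and 3, and at 680, 578 and 552 CPM in TPA. It was highest in number 1 of each group, as were 29.1% of all tested genes, CD274 among them.

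**Figure D5:**
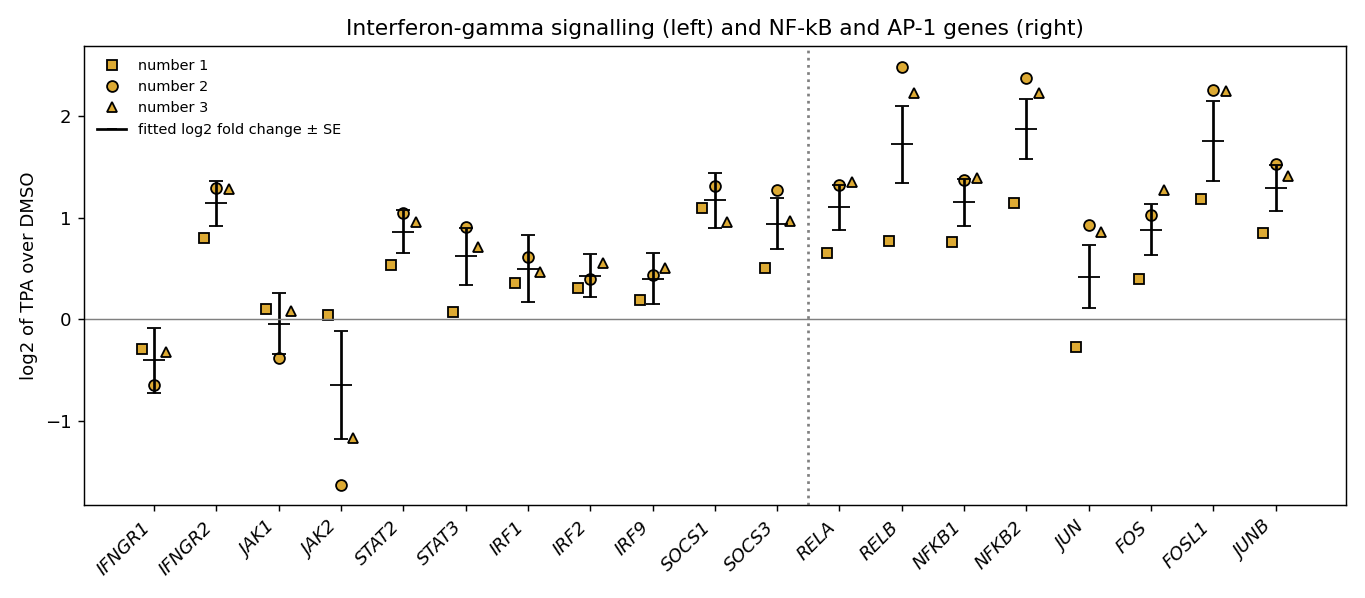
Log2 of TPA over DMSO within each library number (symbols) and fitted log2 fold change ± SE (black) for 11 genes of interferon gamma signalling and 8 of the NF-kB and AP-1 families. NFKB2 and JUNB lie above 0.8 in every number, whereas JAK2 is at 0.04 in number 1 and at -1.62 and -1.16 in numbers 2 and 3.

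Of 20 genes known to act on PD-L1 protein that were tested, 0 passed (edgeR; unadjusted p below 0.05 for 4, 2 higher and 1 lower with DESeq2, 0 with limma-voom), with a median of 0.04, and the block called 1 higher and 1 lower. B3GNT3, a glycosyltransferase gene, had 77.4, 66.2 and 71.3 CPM in DMSO and 115, 216 and 202 CPM in TPA (log2 1.31 ± 0.28, adjusted p = 0.0653, and 0.0205 with the block). FKBP5, a co-chaperone gene, had 16.3, 20.6 and 18.8 CPM against 8.27, 10.0 and 9.26 CPM (-1.01 ± 0.22, 0.0672). The block called it (0.0220), and the block with GC correction did not (-0.58, 0.069). B3GNT3 stayed called with the GC correction added (0.90, 0.00819). That fit called 2 of the list higher and 2 lower, against 9.84% and 11.4% of all genes. The block alone called 4.58% and 6.52% of all genes. CMTM6, which keeps PD-L1 at the cell surface, had 174, 220 and 192 CPM against 178, 104 and 122 CPM, with overlapping groups (-0.54 ± 0.25, 0.266).

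Of 9 tested neighbours of CD274 and PDCD1LG2 on chromosome 9, 0 passed on group alone (edgeR; unadjusted p below 0.05 for 2, 0 with limma-voom). The block called PLGRKT higher and KIAA2026 and MLANA lower, against 4.58% and 6.52% of all genes. With the GC correction added, PLGRKT (adjusted p = 0.0109 by edgeR) was called higher. KIAA2026, MLANA and ERMP1 (0.0245) were called lower there, against 9.84% of all genes higher and 11.4% lower. DESeq2 tested 10 and called 2 higher, PLGRKT and a gene with too few counts for the edgeR test. Without TPA 1, 2 of the list were called higher and 7 lower by edgeR, where 5577 of all genes were higher and 6297 lower. PLGRKT, a plasminogen receptor gene, had 104, 69.4 and 63.0 CPM in DMSO and 170, 131 and 133 CPM in TPA (log2 0.88 ± 0.26, adjusted p = 0.113, and 0.0356 with the block). It was highest in number 1 of each group, as were 29.1% of all tested genes, CD274 among them. ERMP1, an endoplasmic reticulum peptidase gene, had 463, 576 and 518 CPM against 294, 321 and 364 CPM, without overlap (-0.67 ± 0.19, 0.105). JAK2 had 13.6, 10.2 and 10.2 CPM against 14, 3.26 and 4.53 CPM, low in TPA 2 and TPA 3 alone.

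Around PVR and NECTIN2 on chromosome 19, 0 of 8 tested genes passed (edgeR; unadjusted p below 0.05 for 4, 2 higher with DESeq2, 1 higher with limma-voom). Their median log2 fold change was 0.70, beside 0.61 for PVR, 1.02 for NECTIN2 and a median of -0.11 for all genes. With the block the neighbours' median was 0.65, beside 0.61 for PVR, 0.98 for NECTIN2 and -0.17 for all genes. With the block and GC correction it was 0.29, beside 0.23 for PVR, 0.62 for NECTIN2 and -0.15 for all genes. RELB, an NF-kB subunit gene that is also in the list of transcription factors, had 58.9, 23.9 and 27.5 CPM in DMSO and 101, 134 and 129 CPM in TPA (log2 1.72 ± 0.38, adjusted p = 0.0676, and 0.0104 with the block). CEACAM19 had 7.14, 6.16 and 5.93 CPM against 9.17, 12.1 and 11.9 CPM (0.79 ± 0.23, 0.113). BCAM, a laminin receptor gene, had 104, 304 and 298 CPM against 27.0, 150 and 139 CPM and was called lower with the block (0.0133). The block called 4.58% of all genes higher and 6.52% lower. With the GC correction added, RELB and TOMM40 were called higher and BCAM lower, against 9.84% and 11.4% of all genes. Transcript GC content of the 8 runs from 54.9% (IGSF23) to 65.7% (BCL3). Adding the GC correction to the block moved CEACAM19 from 0.78 to 0.40, TOMM40, a mitochondrial import gene, from 0.71 to 0.35 and CLPTM1 from 0.59 to 0.22.

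Genes whose log2 CPM followed CD274 most closely across the 6 libraries, among 12199 genes with an average log2 CPM of at least 1, were RAB6B (Pearson r = 0.9988), ZBTB49 (0.9952), CTH (0.9943), CRY1 (0.9941) and PNO1 (0.9933). RAB6B, a small GTPase gene, had 4.48, 1.56 and 1.47 CPM in DMSO and 5.95, 2.42 and 2.84 CPM in TPA, the same order of libraries as CD274. For NT5E they were PABPC1L (0.9929), CCZ1 (0.9737), FAM71F2 (0.9720), DNAJB11 (0.9693) and SEC11C (0.9667). The points of these correlations are the 6 libraries, which share depth and the gap between number 1 and the others.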

How the data were processed

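Per the labels' protocols, TRIzol served for RNA extraction and Illumina's standard method for the libraries. The deposited table holds the authors' raw read counts per gene symbol, 1 column per library, and 0 columns fell outside the labels. HISAT2 2.1.0 and HTSeq 0.12.4 with hg38 and GRCh38 are named in the submitters' processing notes. Which annotation release, strand setting and read layout were used is not given in the sources here. The column names control and TPA with a number were matched to the titles DMSO and TPA of that number.

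TPA was compared with DMSO by edgeR 4.0.16 (R 4.3.3, quasi-likelihood F-test, TMM factors, filterByExpr, Benjamini-Hochberg adjustment over all 21825 genes tested, threshold 0.05). Standard errors are the log2 fold change divided by the square root of F. CPM are counts over the TMM-scaled library size, log2 ratios use a prior count of 2, and intervals for counts of 0 cover counting error only. Lengths, GC content and gene coordinates came from GENCODE 29 (GRCh38), in which 37725 of the table's symbols matched by current and 18800 by release symbol while 4066 did not match. The GC correction used a robust natural spline (5 degrees of freedom) fitted over genes above an average log2 CPM of 2. Alternatives were limma-voom (limma 3.58.1), DESeq2 1.42.0, other scalings and filters, a threshold of 0.01, the replicate block and libraries left out. The steps were tested on simulated data.

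Same-numbered libraries deviated together from their group means (correlations 0.646, 0.438 and 0.598), and on that ground alone, with no culture named in the labels, the numbers were treated as pairs. The crossed correlations of numbers 2 and 3 were 0.487 and 0.595, so those numbers are not told apart. The 10 genes, the lists and the tests were chosen with earlier results of these data known. From each list the 2 genes with the lowest p and any that passed were named, and further list genes were picked with their values in view. For 1 list gene no values are reported here.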

Additional observations from a re-analysis of the deposited data

How the results depend on the processing

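Of 158 log2 fold changes of the 9 tested ligand genes under alternative settings, 132 kept their direction and side of the threshold, 16 passed only there and 10 turned direction. CD276 turned to 0.03 with RLE factors, 0.03 with no filter, 0.07 with DESeq2 and 0.24 without both libraries numbered 1, and ran from -0.30 to 0.38 with 1 library left out. NT5E turned to -0.04 with library size only and ran from -0.18 to 0.97, and CADM4 turned to 0.05 without the libraries numbered 1 and ran from -0.53 to 0.25. The cause was not tested.

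The count of ligand genes called higher was 0 and became 1 with the replicate block, 2 with the block and GC correction, 1 with the GC correction alone, 2 with DESeq2, 5 without the libraries numbered 1, and 0 to 3 with 1 library left out (3 without TPA 1). The count called lower became 1 with the block and GC correction and 2 without the libraries numbered 1.

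Over all genes 188 were higher and 86 lower. The counts were 1000 and 1423 with the block, 2068 and 2403 with the block and GC correction, 749 and 717 with the GC correction alone, 429 and 202 with no filter, 1635 and 758 with DESeq2, 7216 and 7475 without the libraries numbered 1, and 0 and 0 at a threshold of 0.01. With limma-voom 130 were lower. With 1 library left out they ran from 0 to 5577 and from 0 to 6297, both at 0 without DMSO 2 or DMSO 3 and highest without TPA 1 (without TPA 3 they were 2 and 0). Library size alone gave 126 and 219, 36.5% higher against 68.6%, and moved the median of all genes from -0.11 to -0.36, while NECTIN2 (0.76), PVR (0.36), ICOSLG (0.93) and CD274 (0.44) kept their direction under all scalings. Using the longest transcript in place of all exons put CD276 (35.5) above CD274 (29.3) in DMSO per kilobase. Depth limits CD80, VTCN1, ICOSLG, LGALS9 and NT5E, which had 0 to 69 counts per library.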
